A study of Bos taurus with 10 samples.

Results

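Disulfide bonds hold together many proteins that a cell secretes or places on its surface. The 9 genes described here encode enzymes that make these bonds: the sulfhydryl oxidases *QSOX1* and *QSOX2*, the endoplasmic reticulum (ER) oxidases *ERO1A* and *ERO1B*, and the protein disulfide isomerases *P4HB*, *PDIA3*, *PDIA4*, *PDIA5* and *PDIA6*. All 9 were found by symbol among the 20112 genes of the table. *QSOX1* was picked because it had one of the largest rises in *SOX2* KO embryos, so its change between the groups is given as a description without a test. The other 8 were picked for their function, and the test between the groups was applied to them. RNA-seq was available for 10 bovine early blastocysts, each sequenced alone. The 5 WT embryos had been injected as zygotes with mRNA of the cytosine base editor BE3 and without sgRNA. The 5 *SOX2* KO embryos (KO embryos in what follows) had received the same mRNA with a mixture of sgRNAs by which the editor is to write stop codons into *SOX2*, so both groups carried the editor and the sgRNAs were the only labelled difference. Embryos were produced in vitro, from oocytes of abattoir ovaries, and the labels give their age as 7.0 days after fertilization, somewhat earlier than the methods of the study. Each value is one embryo and holds all of its cell types, so fewer cells of a type and less RNA per cell cannot be told apart.

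In the ER, ERO1 enzymes take electrons from protein disulfide isomerases and pass them to oxygen, and the isomerases in turn insert bonds into newly made chains and rearrange wrong ones. QSOX enzymes combine thioredoxin-like domains with a flavin-binding oxidase domain in 1 chain, which lets them oxidize substrates without a separate isomerase. QSOX1 lies mainly in the Golgi and is also secreted, where it is known to act on extracellular matrix that contains laminin. The blastocyst has an outer trophectoderm, a secretory epithelium, around an inner cell mass.

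Values are normalized read counts, that is the reads of a gene divided by the size factor of the embryo. The reads behind them were recovered, with 2223670 to 5134855 per WT and 2578284 to 4337342 per KO embryo (two-sided exact permutation test, p = 0.349). The embryos listed as ko1 to ko5 carry no replicate number of the labels. The 18S ribosomal RNA gene *RN18S1* took 26.4% to 37.0% of reads in WT against 32.5% to 44.95% in KO embryos (p = 0.0635 by the same exact test), and more genes had a read in *SOX2* KO than in WT embryos (17987 to 19813 against 15919 to 18092 genes; exact permutation p = 0.0159). The *SOX2* transcript itself was at 56.5 to 93.4 in WT and 26.4 to 82.1 in KO embryos, highest in ko4 among the latter, and read counts do not show the edited bases. The genotypes rest on the authors' sequencing of cDNA from each blastocyst, and editing in an injected zygote can differ between its cells. Of all 20056 tested genes, 8.93% were called higher and 1.16% lower, where a call needed an adjusted p (limma) no greater than 0.05 and at least a 2-fold change. Of 9 tested trophectoderm markers, 1, *SFN*, was called higher and 0 lower. By the limma adjusted p alone 2 were higher and 1, *TFAP2C*, lower. Their summed normalized read count was 25450 to 37910 in WT and 35690 to 48980 in KO embryos. Most of this sum came from *KRT8* (15030 to 22930 in WT and 18210 to 25760 in KO embryos) and *KRT18* (6996 to 10870 and 12400 to 18210). Of 7 epiblast markers, 4 were called lower and 0 higher, with sums of 1928 to 2316 and 1008 to 1313. By the limma adjusted p alone 6 of them were lower, with *POU5F1* and *SALL4* added, and 0 higher. Of 7 primitive endoderm markers, 2 were called lower and 0 higher, with sums of 1411 to 1852 and 1252 to 1442. Of 8 cumulus cell markers, 1, *COL1A2*, was called higher and 0 lower, with sums of 75.6 to 133 and 127 to 246. *COL1A2* made up much of these sums, with 41.9 to 73.6 in WT and 66.9 to 218 in KO embryos. The other 7 cumulus markers did not reach a limma adjusted p of 0.05. Of 2 sperm markers 0 were called by limma, DESeq2 or edgeR or had an unadjusted limma p under 0.05, with sums of 0 to 21.3 and 0 to 7.79. No marker found in the table was at 0 throughout a group. The part of cell types, of *RN18S1* and of the number of detected genes in the results below was not tested unless a value is given.

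*QSOX1* had a normalized read count of 8.39, 1.48, 7.95, 3.11 and 15.9 in the WT embryos nc1 to nc5. In ko1 to ko5 it stood at 100.2, 77.9, 68.6, 26.3 and 123. The groups did not overlap: the lowest KO embryo, ko4, lay above the highest WT embryo, nc5. Means were 7.38 ± 5.65 (SD, n = 5) and 79.3 ± 36.4 (SD, n = 5), a ratio of 10.8. These values rest on 51 reads in the WT embryos together and 347 in the KO embryos, and nc2 had 1 read, under the floor of 3 reads. On the log2(normalized read count + 1) scale the difference was 3.40 with a standard error of 0.48. The gene ranked just before it among 151 called rises without overlap and with a KO mean of 50 or more was *LOC789503*, at 3.68, and the one just after it was *MUC1*, which encodes a membrane mucin, at 3.37. With each embryo left out in turn the difference of *QSOX1* was 3.03 to 3.75, and with *RN18S1* share as a covariate in the fit it was 2.90. Among all 20056 tested genes, 8.93% were called higher and 9.17% had no overlap between the groups. Because the gene was chosen by this contrast, nothing is read from its place among them.

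**Figure D1:**
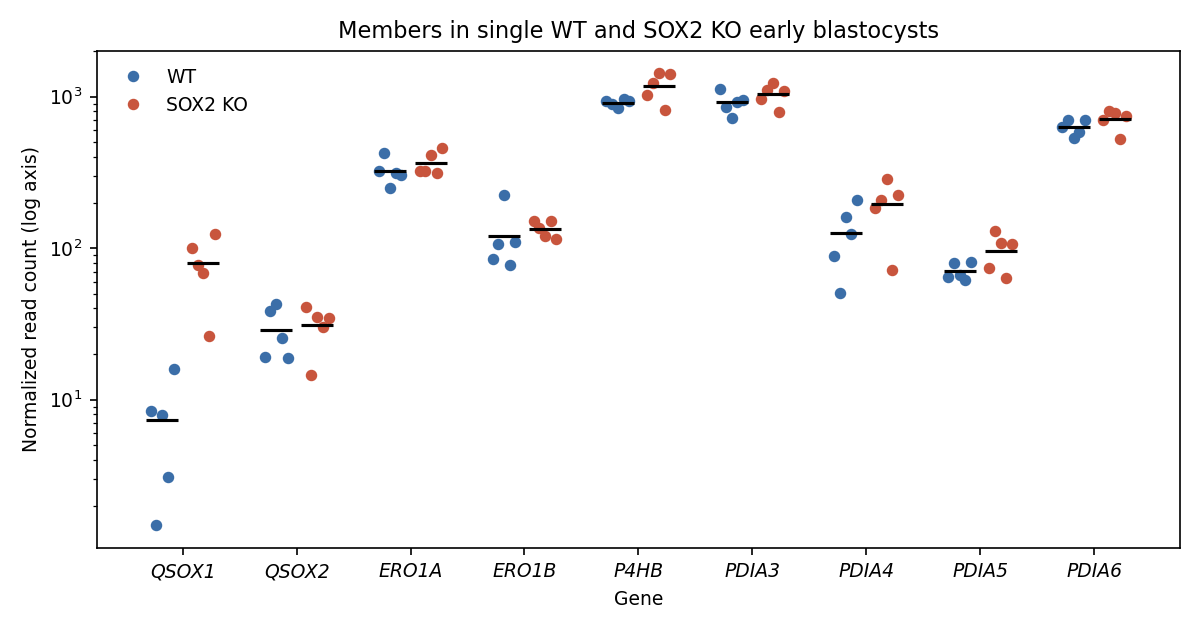
Normalized read counts (log axis) of the 9 genes in single embryos, WT in blue and *SOX2* KO in red, each drawn from left to right in the order nc1 to nc5 and ko1 to ko5, with a bar at the mean of each group. *QSOX1* is the one gene whose groups do not overlap, with WT embryos from 1.48 to 15.9 and KO embryos from 26.3 to 123.

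Its paralog *QSOX2*, the other sulfhydryl oxidase with the same domain plan, did not differ between the groups beyond the spread of the embryos. The WT embryos had 19.1, 38.6, 42.8, 25.6 and 18.9, and the KO embryos 41.2, 14.5, 34.9, 30.4 and 34.6. The groups overlapped over nearly their whole ranges, and the highest WT embryo, nc3, was above every KO embryo. Means were 29.0 ± 11.1 and 31.1 ± 10.05 (SD, n = 5 each). The log2 change (the difference of KO and WT means of log2(normalized read count + 1)) was 0.10 (standard error, SE, 0.33, adjusted p by limma = 0.860), and 2 standard errors around it span -0.56 to 0.77. Its sign turned with rescaling to equal totals (-0.02), with quantile normalization (-0.00) and with the *RN18S1* covariate (-0.21).

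The balance within the QSOX pair was followed as the share of *QSOX1* among the reads of both genes. The share uses the *QSOX1* reads by which the gene was chosen. Its difference between the groups therefore restates that choice and is given as a description only. A share of this kind does not depend on depth or on size factors, and as gene length was not taken into account it compares embryos and not the levels of both genes. It was 30.6%, 3.70%, 15.7%, 10.8% and 45.8% in the WT embryos and 70.9%, 84.3%, 66.3%, 46.4% and 78.1% in ko1 to ko5. The group means were 21.3% ± 16.9 and 69.2% ± 14.5 (SD, n = 5 each). No KO embryo was below the highest WT embryo, but ko4 and nc5 were apart by less than their counting error, with 95% exact binomial (Clopper-Pearson) intervals of 34.3% to 58.8% and 32.7% to 59.3%. Between 27 and 137 reads stand behind each share, and as reads without molecular identifiers can be copies of 1 molecule, the intervals cover counting error only.

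**Figure D2:**
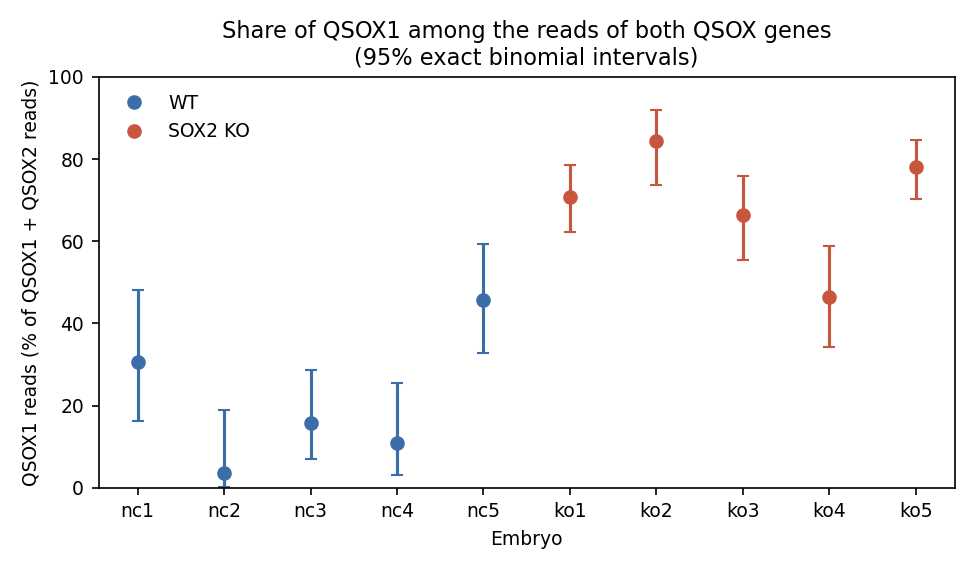
Share of *QSOX1* among the reads of *QSOX1* and *QSOX2* (percent, 0 to 100) in each embryo, WT in blue and *SOX2* KO in red, with 95% exact binomial intervals. The WT embryos lie between 3.70% and 45.8% and the KO embryos between 46.4% and 84.3%, and the intervals of nc5 and ko4 cover nearly the same range. *QSOX1* was chosen for its rise, so the difference between the groups is a description only.

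The ERO1 oxidases, which recharge the isomerases in the ER, did not pass the test. *ERO1A*, the widely expressed form, had 321, 426, 249, 313 and 303 in WT and 324, 322, 412, 315 and 459 in KO embryos. The groups overlapped in all but the highest KO embryo, ko5. Its log2 change was 0.19 (SE 0.17, adjusted p by limma = 0.453). *ERO1B*, the second form, known from insulin-producing cells, had 84.7, 107, 225, 76.9 and 110 in WT and 150, 136, 121, 150 and 114 in KO embryos. The KO embryos were closely grouped, whereas nc3 stood far above the other WT embryos. Its log2 change was 0.26 (SE 0.23, adjusted p by limma = 0.459), and without nc3 it was 0.51 with an adjusted p of 0.0664.

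Of the 5 protein disulfide isomerases, none passed at an adjusted p of 0.05 in the fit over all embryos. *P4HB*, the founding isomerase and also a subunit of collagen prolyl 4-hydroxylase, had 933, 890, 839, 967 and 940 in WT embryos. The KO embryos ko1 to ko5 had 1028, 1240, 1426, 812 and 1417. Of the latter, 4 of 5 were above every WT embryo, and ko4 was below every one. The means were 914 ± 50.2 and 1185 ± 264 (SD, n = 5 each), and the change was 0.34 on the log2 scale (SE 0.16, adjusted p by limma = 0.151). *PDIA4*, an isomerase with an additional thioredoxin-like domain, had 89.3, 50.4, 160, 124 and 209 in WT and 185, 209, 287, 71.5 and 224 in KO embryos. Again ko4 was the lowest of its group, and the groups overlapped widely. The log2 change of *PDIA4* was 0.64 (SE 0.34, adjusted p by limma = 0.192), the largest of the 8 genes, and 2 standard errors span -0.03 to 1.32, so that a doubling was within reach of the error.

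*PDIA3* acts on glycoproteins bound to calnexin and calreticulin, and it lay between 725 and 1125 in WT and between 787 and 1238 in KO embryos. *PDIA5*, a less studied family member, lay between 61.4 and 81.5 in WT and between 63.3 and 129 in KO embryos. *PDIA6*, which is also known for limiting the signalling of ER stress sensors, lay between 531 and 705 in WT and between 524 and 800.2 in KO embryos. Their log2 changes were 0.17, 0.40 and 0.16, with standard errors of 0.16, 0.21 and 0.15 (limma adjusted p = 0.469, 0.203 and 0.477). In each of these genes 1 to 3 KO embryos were above the highest WT embryo and the rest lay within the WT range, except ko4 in *PDIA6*, which was below the lowest WT embryo.

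Over the 8 genes, 0 reached an adjusted p of 0.05 with limma, DESeq2 or edgeR, and 1 of them, *P4HB*, had an unadjusted limma p under 0.05. Of all tested genes, 13.6% reached an adjusted p of 0.05 (10.4% higher and 3.2% lower), and 10.1% were called with the fold change threshold as well. Without overlap between the groups were 0 of the 8 genes and 9.17% of all tested genes. With so few genes, nothing is read from this count. The estimates of all 8 were above 0, from 0.10 to 0.64, with a median of 0.22. An estimate above 0 was found in 62.9% of all tested genes and in 46.9% of those whose mean was 10 or more. The median of all tested genes was 0.25, and that of the 11334 genes whose mean was 10 or more, to which these 8 belong, was -0.04. With rescaling to equal totals the median of the 8 genes was 0.10 against 0.14 for all genes and -0.16 for those whose mean was 10 or more, and *QSOX2* then had a negative estimate.

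**Figure D3:**
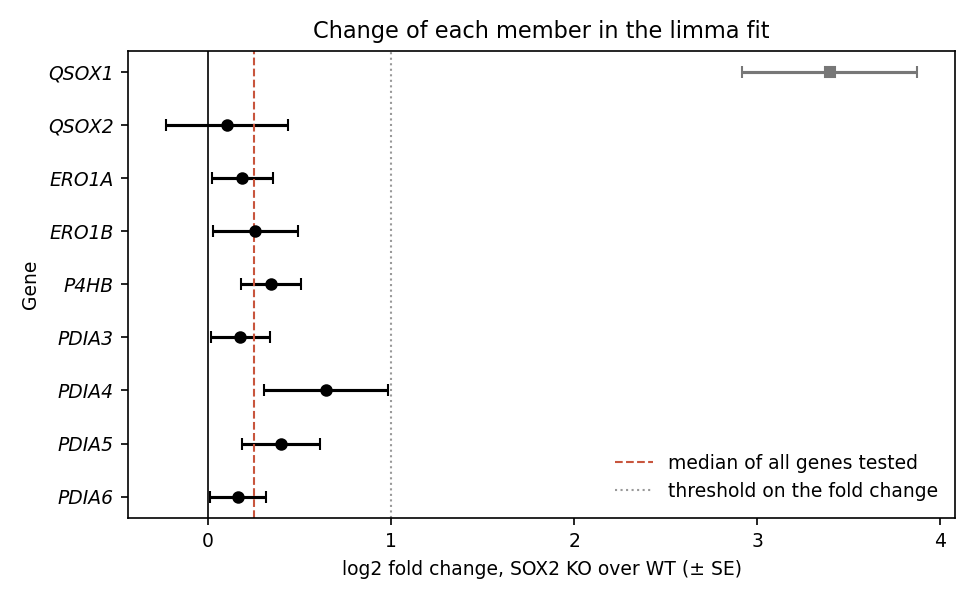
Log2 change of *SOX2* KO over WT (± standard error) of the 9 genes, with *QSOX1* as a grey square because it was chosen by this contrast, a dashed line at the median of all tested genes (0.25) and a dotted line at the threshold on the fold change (1). *QSOX1* stands at 3.40 and the other 8 genes lie between 0.10 and 0.64, left of the threshold.

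The KO embryos differed among themselves in these enzymes. On the log2 scale, the median of the 5 isomerases relative to the WT mean was 0.16, 0.44, 0.62 and 0.59 in ko1, ko2, ko3 and ko5, and -0.21 in ko4. All 5 isomerases, *ERO1A* and *QSOX1* were lowest in ko4 among the KO embryos, that is 7 of the 9 genes. The same embryo was the lowest of its group in 31.2% of all tested genes and in 20.04% of those with a mean of at least 50. The exceptions among the 9 genes were *QSOX2*, lowest in ko2, and *ERO1B*, lowest in ko5. The position of ko4 was not particular to these enzymes. In the 8 lists of related genes described below, ko4 was the lowest KO embryo for 42 of 93 tested genes (45.2%). The ER chaperone genes *HSPA5*, *HSP90B1* and *HYOU1* were among them. *QSOX1* stood 3.90, 3.54, 3.36, 2.005 and 4.19 above the WT mean in ko1 to ko5, so even in ko4 it was above WT while the isomerases there were not. Among WT embryos, *QSOX1* and *PDIA4* were both highest in nc5 and both lowest in nc2, the embryo with the fewest reads. After the group means were taken away, the Pearson correlation of log2 values with *QSOX1* was 0.81 for *PDIA4*. For the rest of the 9 genes it ran from -0.25 (*QSOX2*) to 0.45 (*P4HB*).

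Without ko4, *P4HB* had a log2 change of 0.47 (limma adjusted p = 0.0263) and *PDIA4* of 0.97 (limma adjusted p = 0.0238), both still short of the threshold on the fold change. The other 6 genes did not reach an adjusted p of 0.05 without ko4. Leaving this embryo out raised the calls over all genes as well, with 22.5% of genes at an adjusted p of 0.05. Leaving out any other embryo brought none of the 8 genes to that level.

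**Figure D4:**
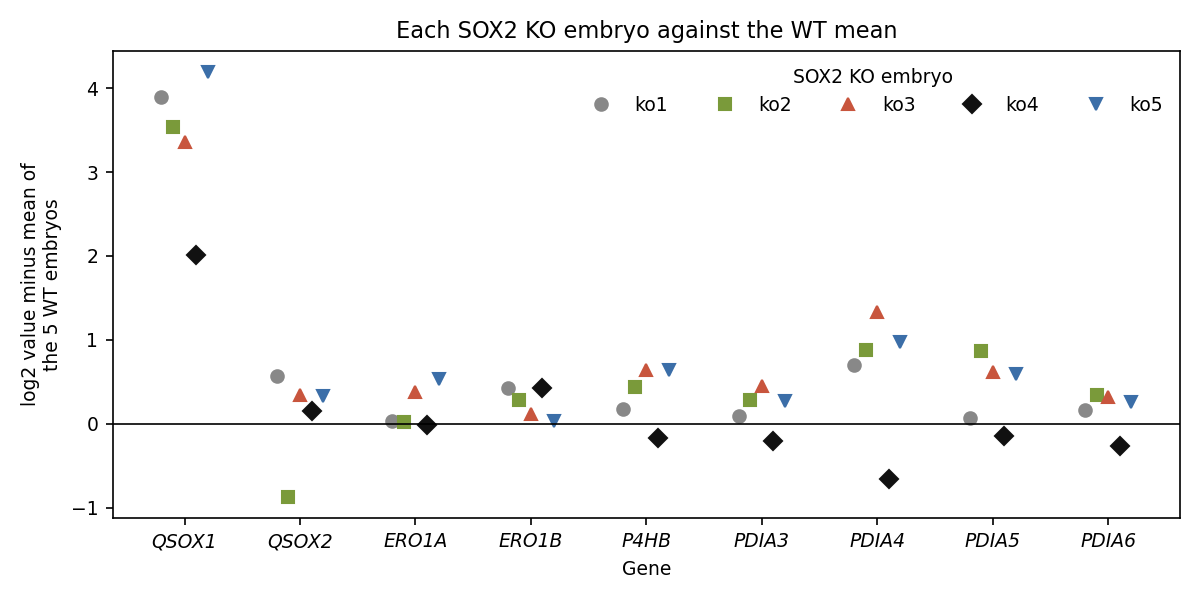
Log2(normalized read count + 1) of each KO embryo minus the mean of the 5 WT embryos, for the 9 genes, with a symbol for each embryo. The black diamonds of ko4 are the lowest points for *QSOX1*, *ERO1A* and all 5 isomerases, and they lie below 0 for all of these except *QSOX1*, where ko4 is at 2.005.

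The surroundings of these enzymes were described with 8 lists of 96 genes, of which 93 were tested. Calls were 9 rises and 1 fall. The rises make up 9.68%, against 8.93% of all tested genes (1.16% of which were called lower) and against 4.97% (and 1.9% lower) of genes whose mean was 10 or more. The number of calls changed when an embryo was left out. The 10 calls became 4 without nc1, 6 without nc2, and 5 each without nc5, ko1 or ko5. In these fits the calls over all genes fell as well, from 2024 to between 930 and 1410. With the *RN18S1* covariate 0 of the 10 calls remained, and 220 of all genes were called.

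Among 15 other genes of the protein disulfide isomerase family, 3 were called higher and 0 lower. *TXNDC5*, an isomerase of the ER, had 45.8 to 113 in WT and 102 to 184.5 in KO embryos, with overlap in ko4 only. It rose by a log2 change of 1.09 (SE 0.23, adjusted p by limma = 0.00606), a call that was lost without nc1 (0.92), with equal totals (0.97) and with edgeR (0.96). *TXNDC16*, a less studied ER member, had 161 to 191 in WT and 316 to 422 in KO embryos, a change from 176 ± 13.7 to 355 ± 42.7 (SD, n = 5 each). Its log2 change of 1.001 (limma adjusted p = 0.000304) lay at the threshold, and it slipped below 1 in 6 of the 10 fits that left out an embryo (nc1, nc2, nc5, ko1, ko3 or ko4) while the adjusted p stayed at 0.000448 to 0.00186. It was also below 1 with a pseudocount of 5 (0.98), equal totals (0.88) and edgeR (0.93). *CASQ1*, the calcium buffer calsequestrin of muscle, which has a thioredoxin-like fold and no isomerase role, was the remaining call, with 3 reads in all WT and 24 in all KO embryos, and it was not called with a pseudocount of 5 or quantile normalization. The other 12 genes did not pass, among them *ERP44*, which retrieves ERO1 and other clients from the Golgi (log2 change 0.12), and *DNAJC10*, an ER reductase (-0.31). The median of the list was 0.12, and it was -0.00 with equal totals and -0.01 with quantile normalization.

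Other routes of oxidation showed 0 calls among 9 genes with limma, DESeq2 or edgeR (2 had an unadjusted limma p under 0.05), with a median log2 change of -0.23. *PRDX4*, the ER peroxiredoxin that can stand in for ERO1, had 187 to 446 in WT and 125 to 251 in KO embryos (-0.44, limma adjusted p = 0.168). *GFER*, the sulfhydryl oxidase of the mitochondrial intermembrane space whose catalytic domain is related to that of QSOX1, had 97.4 to 154 in WT and 72.1 to 161 in KO embryos, with ko4 above all others (-0.48, limma adjusted p = 0.139). *SELENOF*, a selenoprotein of the ER, fell from 425 ± 90.9 to 286 ± 30.4 (SD, n = 5 each; log2 change -0.55, limma adjusted p = 0.0347), short of the 2-fold threshold. Its adjusted p went above 0.05 in 7 of 10 fits without an embryo (nc1, nc2, nc4, ko1, ko2, ko3 or ko5; up to 0.0939), with quantile normalization (0.0545) and with the covariate (0.374). Neither of the 2 oligosaccharyltransferase subunits with a thioredoxin-like fold, *TUSC3* (-0.015) and *MAGT1* (0.27), passed the test, and 0 of these 2 had an unadjusted limma p under 0.05 or were called by DESeq2 or edgeR. Of 8 partners of *P4HB* and *PDIA3*, 0 were called by limma, DESeq2 or edgeR and 1 had an unadjusted limma p under 0.05. This was *P4HA1*, the catalytic partner of *P4HB* in prolyl hydroxylation, with 40.0 to 97.7 in WT and 55.0 to 165 in KO embryos (0.82, limma adjusted p = 0.0541). The lectin chaperones *CANX* and *CALR*, which hand glycoproteins to PDIA3, had -0.19 and 0.22 (limma adjusted p = 0.428 and 0.361).

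Of 14 ER chaperone genes, 1 was called higher, 0 were called lower and 2 more rose by under 2-fold. The call was *DNAJC1*, a membrane-bound cochaperone, from 46.2 ± 22.7 to 96.7 ± 24.7 (SD, n = 5 each; log2 change 1.12, limma adjusted p = 0.0162), which was lost without nc2 or ko5 and with edgeR. *SEC63*, a component of the translocation channel, and *CRELD2*, a target of the unfolded protein response that has isomerase activity, rose by 0.59 and 0.69 (limma adjusted p = 0.0223 and 0.0282). *SEC63* passed 0.05 neither without ko3 (0.0585) nor with equal totals (0.0742). *CRELD2* did not pass without nc2, nc5, ko2, ko3 or ko5 (up to 0.0881), with equal totals (0.056) or with the covariate (0.400). *HSPA5*, the main chaperone of the ER lumen and the customary readout of ER stress, had 990 to 1358 in WT and 973 to 1878 in KO embryos (0.40, limma adjusted p = 0.124). *HYOU1*, its nucleotide exchange factor, had 0.54 (limma adjusted p = 0.0509), and *HSP90B1* had 0.12 (limma adjusted p = 0.694). The median of the list was 0.34, and 13 of the 14 estimates were above 0, or 8 of 14 with equal totals. Of all tested genes 62.9% were above 0, or 56.5% with equal totals. Of those whose mean was 10 or more, 46.9% and 37.2% were.

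Of 19 genes of the unfolded protein response, 1 was called higher and 1 lower. *CHAC1*, a glutathione-degrading enzyme induced by the ATF4 branch, fell from 64.2 ± 26.8 to 19.5 ± 15.2 (SD, n = 5 each; log2 change -2.06, limma adjusted p = 0.0136), and every fit that left out an embryo still called it. *CREB3L1*, a membrane-bound transcription factor of secretory cells, had 1.48 to 8.95 in WT and 6.60 to 26.7 in KO embryos (1.6001, limma adjusted p = 0.0485), and its call was lost without any 1 of 7 embryos (nc1, nc2, nc4, nc5, ko1, ko3 or ko5) and in 6 of 10 other settings. This gene had 27 reads in the WT embryos together and 67 in the KO embryos. *ATF6*, *ERN1* and *EDEM1*, that is a pair of stress sensors of the ER membrane and a factor of ER-associated degradation, rose by 0.72, 0.92 and 0.59 (limma adjusted p = 0.0114, 0.0339 and 0.0214), below the threshold on the fold change. *ATF6* passed 0.05 with each embryo left out (adjusted p up to 0.0434) but not with the covariate (0.270). *ERN1* did not pass without nc1, nc2, nc4, nc5, ko1 or ko5 (up to 0.107), with equal totals (0.0669), with quantile normalization (0.0787) or with the covariate (0.271). *EDEM1* did not pass without nc2 or ko5 (up to 0.0623), with equal totals (0.0563), with edgeR (0.0582) or with the covariate (0.214). *DDIT3* and *XBP1*, transcription factors downstream of the sensors, had 0.34 and 0.32 (limma adjusted p = 0.327 and 0.209), and *ATF4* had -0.37 (limma adjusted p = 0.247).

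Of 15 genes of thiol reduction, which keep the cytosol and mitochondria reduced, 1 was called higher and 0 lower. *TXNRD2*, the mitochondrial thioredoxin reductase, had 7.41 to 29.0 in WT and 32.3 to 54.7 in KO embryos, with limma giving a change of 1.597 on the log2 scale (SE 0.33, adjusted p = 0.00523) that was called with every embryo left out. Its cytosolic counterpart *TXNRD1* and the thioredoxin *TXN* had 0.18 and -0.02 (limma adjusted p = 0.569 and 0.960).

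Laminins are secreted trimers with many disulfide bonds and form basement membranes. Of 11 laminin chains, 3 were called higher and 0 lower, 2 more passed the adjusted p alone, and the median log2 change was 1.09. DESeq2 called 4 and edgeR 5 of these chains. *LAMA3*, *LAMB3* and *LAMC3* were the calls, with log2 changes of 1.70, 1.84 and 2.32 (limma adjusted p = 0.0281, 0.0411 and 0.0330). They rest on few reads, 35, 13 and 8 in the WT embryos together and 110, 50 and 52 in the KO embryos. Each of these calls was lost in at least 5 of the 10 fits that left out an embryo, in all 3 genes without nc1, nc5, ko1 or ko5, and with quantile normalization. *LAMA5* and *LAMB1*, chains with more reads, rose by 0.65 and 0.71 (limma adjusted p = 0.0386 and 0.0399). Their adjusted p lay close to 0.05. With each embryo left out, the change of *LAMA5* stayed at 0.53 to 0.79 and that of *LAMB1* at 0.51 to 0.85. *LAMA5* passed 0.05 only without nc3 or ko4 among the 10 fits without an embryo (up to 0.106) and missed it in 5 of 11 other settings, where its change was as low as 0.30 with the covariate (adjusted p = 0.571). *LAMB1* passed only without nc3, nc5 or ko4 (up to 0.111) and missed 0.05 in 6 of 11 other settings (up to 0.250). *LAMC1*, the chain shared by most laminins, had 110 to 181 in WT and 144 to 239.5 in KO embryos (0.52, limma adjusted p = 0.0717). All 11 estimates were above 0, from 0.52 to 2.32, and this held with equal totals, quantile normalization and the *RN18S1* covariate. Of all tested genes, 62.9% were above 0 in the main fit, and 56.5%, 48.4% and 59.8% in these 3 settings. *LAMA1*, which also stands in the primitive endoderm marker list, had 15.5 to 196 in WT and 98.8 to 152 in KO embryos (1.07, limma adjusted p = 0.0860).

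**Figure D5:**
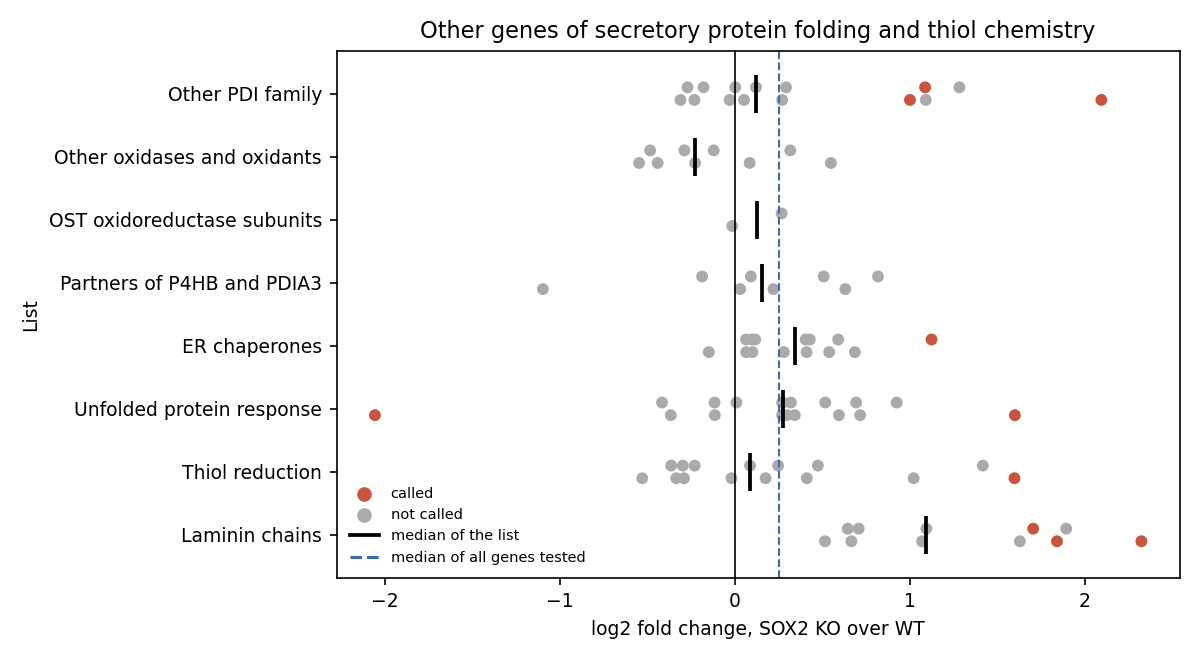
Log2 change of *SOX2* KO over WT of the 93 tested genes in 8 lists, with called genes in red, other genes in grey, a black bar at the median of each list and a dashed line at the median of all tested genes (0.25). Most lists have their median within 0.5 of that line, 10 genes are called, and the laminin chains all lie right of 0 with a median of 1.09.

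The genes whose log2 values followed *QSOX1* most closely over the 10 embryos were sought among 11333 other genes with a mean of at least 10. They were *CD55*, which protects cells from complement, *TPCN1*, an endolysosomal cation channel, *PRAG1*, a pseudokinase, *CPPED1*, a phosphatase, and *RAP1GAP*, which inactivates the GTPase RAP1. Their Pearson correlations with *QSOX1* were 0.98, 0.98, 0.98, 0.97 and 0.97, as a description over 10 embryos that share their group difference and with genes taken from the top of a long ranking. After the group means were taken away, the correlations were 0.96, 0.91, 0.88, 0.88 and 0.89. All 5 were lowest in nc2 among the WT embryos and lowest in ko4 among the KO embryos, as *QSOX1* was. The shared lowest embryos and the remaining correlations follow in part from choosing these genes by correlation over the same embryos. They are a description only. *PRAG1* went from 10.5 ± 9.53 to 81.8 ± 30.5 (SD, n = 5 each) and *CPPED1* from 84.4 ± 24.5 to 177 ± 18.7 (SD, n = 5 each), whereas *CD55* overlapped between the groups, with 32.0 in ko4 and 36.0 in nc5.

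The protein-coding neighbours of *QSOX1* in the RefSeq gene order of ARS-UCD2.0, chosen by position, were *CEP350* on one side and *LHX4* on the other. *CEP350*, a centrosomal gene, had 267 to 325 in WT and 210 to 281 in KO embryos (log2 change -0.19, limma adjusted p = 0.381). *LHX4*, a homeobox gene of the pituitary and nervous system, had at most 2.98 in WT and 5.57 in KO embryos (limma adjusted p = 0.474). The next gene beyond *LHX4*, *ACBD6*, had 32.8 to 68.2 and 29.1 to 51.2 (-0.54, limma adjusted p = 0.148).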

How the data were processed

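The deposited table holds a normalized signal, which the authors made by trimming paired-end Smart-seq2 reads with Trimmomatic, mapping them to ARS-UCD1.2 with HISAT2, counting reads per gene with featureCounts and dividing the counts by DESeq2 size factors. The annotation release, strand setting and treatment of reads shared between genes are not given in the sources used here, so reads of paralogs or overlapping genes may be shared. All 201120 values (100%) were whole multiples (tolerance 0.001) of 1 step per embryo, and reads were recovered from these steps; no pair among the 45 pairs of embryos had identical reads. Genes with fewer than 11 reads over all embryos are not in the table and were not analysed here.

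Groups were compared with lmFit and eBayes (trend on) of limma 3.58.1, fitted to log2 of the normalized read count plus 1 for 20056 genes (mean of 1 or more), with 5 WT and 5 *SOX2* KO embryos and no covariate. On this scale the change of genes with few reads is understated. A call needed a p of at most 0.05 after Benjamini-Hochberg adjustment over all tested genes, together with a 2-fold rise or a fall to 0.5 of the WT level. DESeq2 (1.42.0) and edgeR (4.0.16, quasi-likelihood) on the recovered reads were alternatives in R 4.3.3 and called 2074 and 1985 genes. The other alternatives changed the pseudocount, filter, scaling, weights or covariate or left out each embryo in turn. Single values per embryo were compared by two-sided exact permutation tests in scipy 1.17.1. The main limma fit and the DESeq2 and edgeR fits were tried on simulated counts, and the other alternatives were not.

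The 9 genes, the lists and the rule for named genes (the 9 genes, list members, cell type markers, the 5 genes most correlated with *QSOX1* and its neighbours in the ranking) were chosen with earlier results of these data known. The symbols of all 9 genes were found in the RefSeq table of ARS-UCD2.0, another build than the one the reads were mapped to. Its gene positions served only to order genes and find neighbours, and none of its coordinates are given. The labels do not say whether embryos of a group shared a batch or donor, so p-values measure the spread between these embryos. No sequences were analysed here.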

Additional observations from a re-analysis of the deposited data

Results flagged for a closer look

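Among 54 groups of 5 embryos (27 genes in WT and in *SOX2* KO embryos), 4 had an embryo far from the other 4, by the ratio of its gap to the range of the group. For independent values of a normal distribution, chance gives about 1 in 20, that is 2.7 of 54. These are read counts of genes measured in the same embryos, so that number is a rough guide and no conclusion is drawn from it. *ERO1B* had a normalized read count of 225 in the WT embryo nc3 and 76.9 to 110 in the other WT embryos. *LAMC3* had 5.97 in nc3 and 0 to 0.763, at most 1 read, in the other WT embryos. Among KO embryos, *TXNDC5* was at 102 in ko4, whereas the remaining 4 had 172 to 184.5. *DNAJC1* was at 53.4 in the same embryo, against 100.2 to 114 elsewhere in the group.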

How the results depend on the processing

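The difference of *QSOX1* between the groups was 2.74 to 3.65 over the 11 other settings of pseudocount, filter, scaling, test, weights and covariate. Of the other 8 genes, *P4HB* passed an adjusted p of 0.05 with sample quality weights (0.42, adjusted p = 0.0405), and without single embryos its log2 fold change was 0.27 to 0.47 and that of *PDIA4* 0.36 to 0.97. *QSOX2* turned in sign with equal totals (-0.017), quantile normalization (-0.0022) and the *RN18S1* covariate (-0.21), and was -0.026 to 0.35 without single embryos. The number of genes called, 2024, was 1185 with a pseudocount of 5, 692 with a mean of at least 10 (fewer genes tested), 1076 with quantile normalization (58.5% higher against 88.5%), 220 with the *RN18S1* covariate (62.3% higher), 3515 with sample quality weights and 930 to 3316 without single embryos. With a mean of at least 10, 72.5% were higher, and with the adjusted p alone 2722 genes passed, 76.5% of them higher. The 10 calls in the pathway lists became 6 with a mean of at least 10, 6 with quantile normalization, 0 with the *RN18S1* covariate, 18 with the adjusted p alone and 4 to 12 without single embryos. The cause of these changes was not tested. No paired analysis was possible because replicate numbers given in the labels could not be matched to the columns of KO embryos. Depth limits *QSOX1* in WT, *CASQ1*, *CREB3L1* and the called laminin chains, with 51 reads or fewer in the WT embryos together.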
